A study of Mus musculus with 10 samples.

Results

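The contractile apparatus of smooth muscle was followed through 10 genes that mark it: Acta2, Tagln, Myh11, Cnn1, Smtn, Lmod1, Mylk, Myl9, Actg2 and Csrp1. They were taken by gene symbol from a table of 28165 genes, in which each symbol was found once, and all 10 were among the 15718 genes with enough counts to be tested. The data are bulk mRNA sequencing of smooth muscle cells sorted out of the mouse aorta on embryonic day 15.5, with 5 libraries from Eln-/- embryos, whose elastin gene is inactivated, and 5 from Eln+/+ embryos. Both genotypes came from crosses between Eln+/- mice with an Acta2-GFP reporter, and both carried that reporter. The aorta was digested with collagenase, and cells positive for GFP, negative for the endothelial surface protein CD31 and negative for the dead-cell dye DAPI were sorted by flow cytometry. The labels do not say which allele inactivates Eln, how many embryos made up a library, or whether replicates were separate embryos, so a p-value here measures how libraries of a genotype scatter, and that scatter may be technical. Since the reporter is named for Acta2 and its signal set the gate, every cell was selected for it, and the level of Acta2 is not independent of the sort. In bulk RNA from sorted cells, fewer cells of a type and less RNA per cell cannot be told apart.

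Smooth muscle contracts when filaments of smooth muscle myosin pull on filaments of actin. Calcium activates myosin light chain kinase, which phosphorylates the regulatory light chain of myosin, and actin-binding proteins such as calponin, transgelin, smoothelin and leiomodin organise or restrain the thin filament. Most of these genes are known targets of serum response factor and its cofactor myocardin, which act at CArG boxes in promoters and introns, and Myh11 and Smtn are known as markers of the more mature contractile state. Elastin, the core protein of elastic fibres, is made by these cells in the developing aorta, and mice without it are known to develop arteries obstructed by smooth muscle cells.

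The CArG boxes nearest the starts of these genes are shown because they are the sequence that the contractile genes are best known to share. A box was read as 10 letters, a pair of C, 6 letters that are A or T and a pair of G, on both strands, in the 250 bases before each RefSeq transcription start, either with all 6 inner letters A or T or with up to 1 of them another letter. Promoters of 7 genes matched by symbol, those of Acta2, Cnn1, Smtn, Lmod1, Mylk, Myl9 and Csrp1, and they gave 8 windows. Boxes were found in Acta2 and Myl9, and the capitals mark the box.
Acta2, chr19:34255438-34255467, minus strand: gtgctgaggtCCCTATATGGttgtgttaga
Acta2, chr19:34255388-34255417, minus strand: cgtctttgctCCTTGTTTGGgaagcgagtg
Myl9, chr2:156775293-156775322, plus strand: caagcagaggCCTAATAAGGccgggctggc
Myl9, chr2:156775355-156775384, plus strand: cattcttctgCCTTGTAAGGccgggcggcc
Coordinates and sequences are those of RefSeq on GRCm38.p6. The boxes of Acta2 lay 84 to 75 and 34 to 25 bases before its RefSeq start, and both fall within an exon of GENCODE release M21, in which Acta2 starts 217 bases farther upstream. Those of Myl9 lay 161 to 152 and 99 to 90 bases before the start, and the first of them is the only one of the 4 with all 6 inner letters A or T. Of 27025 mouse genes with a promoter in the table, 1.62% held such a strict box in the same span, 9.78% held a box with up to 1 other letter, and 0.759% held at least 2 of these. The RefSeq start lay 39740 bases from the GENCODE start for Mylk, 1320 for Smtn and 9106 for 1 of the 2 windows of Csrp1. Those windows therefore lie inside the GENCODE spans of these genes. A match describes the letters only, and a window without one says nothing of whether the factor acts on that gene.

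The loss of Eln was plain in the counts. Eln had 36, 1, 0, 1 and 0 counts in Eln-/- replicates 1 to 5, against 2409, 105866, 8603, 49878 and 31530 counts in Eln+/+ replicates 1 to 5. The genotypes did not overlap, although the Eln+/+ libraries alone covered a wide range. Eln had a log2 fold change of -12.19 (SE 1.64) and an adjusted p of 0.152 in edgeR's quasi-likelihood test with Benjamini-Hochberg adjustment, so that even the targeted gene missed the threshold of 0.05 there. Its adjusted p was 1.26e-20 in DESeq2 and 0.0155 in limma-voom. The common biological coefficient of variation was 1.16, so libraries of 1 genotype typically scattered around a gene's level by about the size of that level.

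Libraries differed in ways that genotype does not describe, and these bear on every value below. Total counts ranged from 26951681 to 63866346 per library. Eln-/- replicates 4 and 5 and Eln+/+ replicate 1 had between 15089 and 15925 detected genes, against 18157 to 22951 in the other 7 libraries, and their TMM scaling factors were 0.486, 0.847 and 0.562, against 1.13 to 1.37. Eln-/- replicate 1 and Eln+/+ replicate 2 had the highest Fos, an immediate early gene induced by cell stress or stimulation, at 5438 and 3017 CPM (counts scaled for library size), against 73.0 to 1281 CPM elsewhere. Fibroblast markers, 6 of 6 detected and led by Col1a1 and Dcn, some of which smooth muscle also makes, summed to between 759 and 15211 CPM in Eln-/- libraries and between 1444 and 9124 CPM in Eln+/+ libraries, with the highest sum in Eln-/- replicate 1 and the 3 lowest in the libraries with few detected genes. Endothelial markers, led by Tek and Kdr, summed to 0.490 to 23.9 CPM in Eln-/- libraries and to 0.860 to 44.1 CPM in Eln+/+ libraries. The endothelial genes Pecam1, which encodes CD31, and Cdh5 reached at most 3.41 and 0.808 CPM in Eln-/- libraries and 7.70 and 5.07 CPM in Eln+/+ libraries. Erythroid markers, led by Hbb-bs and Hba-a1, summed to 16.0 to 4245 CPM in Eln-/- libraries and to 216 to 14607 CPM in Eln+/+ libraries, the highest in Eln+/+ replicate 1. Pericyte markers, led by Rgs5 and Kcnj8, summed to 900.3 to 2919 CPM in Eln-/- libraries and to 711 to 1385 CPM in Eln+/+ libraries. Markers of cardiomyocytes (led by Myl7 and Tnni3), of skeletal muscle (Myog and Ckm) and of mesothelium (Upk3b and Wt1) reached sums of at most 539, 137 and 91.0 CPM in Eln-/- libraries and 550.0, 126 and 164 CPM in Eln+/+ libraries. Those of neurons (Stmn2 and Tubb3), epithelia (Krt18 and Krt8) and leukocytes (Lyz2 and Csf1r) reached at most 13.0, 18.5 and 7.27 CPM in Eln-/- libraries and 39.9, 8.74 and 8.92 CPM in Eln+/+ libraries. The part of any of these in the levels of the contractile genes was not tested.

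Within each library the 10 genes fell into 2 tiers of abundance per kilobase of exon, although across libraries the levels of the tiers overlapped. Levels were compared between genes as CPM per kilobase of exon, over the union of a gene's GENCODE exons. Acta2, the smooth muscle actin, was the most abundant at 508.5 ± 194 CPM per kilobase (SD, n = 10). It was followed by Myl9, the regulatory myosin light chain, at 337 ± 221, and by Tagln, or transgelin, at 296 ± 178 CPM per kilobase. Actg2, the enteric smooth muscle actin, averaged 96.7 ± 36.6, Csrp1, a LIM-domain protein of actin fibres, 77.7 ± 47.3, and Cnn1, or calponin, 49.1 ± 35.6 CPM per kilobase. The lower tier began with Smtn at 7.69 ± 13.1 CPM per kilobase. Below it came Lmod1 at 4.41 ± 7.30, Mylk at 4.01 ± 2.97 and Myh11 at 2.39 ± 4.85 CPM per kilobase. Acta2, Myl9 and Tagln together made up between 79.1% and 88.7% of the summed level in every library, while Smtn, Lmod1, Mylk and Myh11 together made up between 0.135% and 4.16%.

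Not every step of that order held within libraries. Tagln exceeded Actg2 in 10 of 10 libraries and Cnn1 exceeded Smtn in 10 of 10, so these are the breaks that the libraries share. Mylk exceeded Myh11 in 9 of 10 and Acta2 exceeded Myl9 in 8 of 10 libraries, as did Csrp1 with Cnn1. Myl9 exceeded Tagln in 5 of 10, Smtn exceeded Lmod1 in 7 of 10 and Lmod1 exceeded Mylk in 4 of 10, so these neighbours were not separated. Actg2 exceeded Csrp1 in 2 of 5 Eln-/- libraries and in 5 of 5 Eln+/+ libraries. The order depended on how length was counted. With the longest transcript in place of all exons, 6 of 10 genes kept their rank, with Tagln and Myl9 trading places and Mylk above Lmod1. With no division by length, which lifts long messages such as Mylk and Myh11, 2 of 10 kept their rank, and Mylk stood seventh and Myh11 ninth. Mylk then exceeded Cnn1 in Eln-/- replicate 4 (34.6 against 16.6 CPM) and in Eln+/+ replicate 1 (19.0 against 17.6 CPM). In Eln-/- replicate 1, which was not among those with few detected genes, Smtn at 187 CPM exceeded Csrp1 at 183 CPM and Actg2 at 152 CPM. The break between the tiers therefore did not hold in these libraries without division by length.

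**Figure D1:**
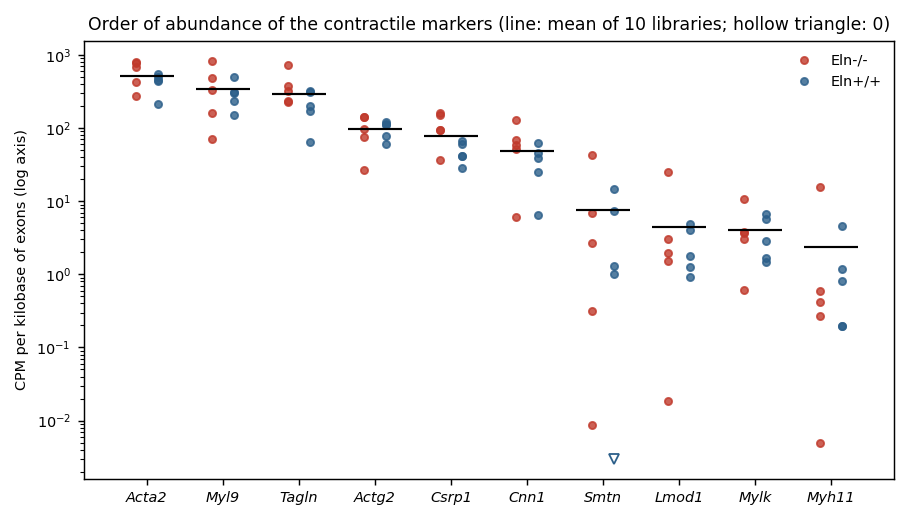
Level of each contractile gene in CPM per kilobase of exon (log axis), in order of its mean over 10 libraries, with Eln-/- libraries to the left of Eln+/+ libraries and a line at the mean; the hollow triangle is a library with 0 counts. The means run between 508.5 for Acta2 and 2.39 for Myh11, with a break between Cnn1 at 49.1 and Smtn at 7.69.

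The actins come first. Acta2 (19:34241090-34255590, minus strand, mm10) had 1690.0, 1742, 1499, 601 and 927 CPM in Eln-/- replicates 1 to 5, against 955, 1195, 473, 984 and 1102 CPM in Eln+/+ replicates 1 to 5. Of the Eln-/- libraries, 3 lay above all Eln+/+ libraries and the other 2, which were the ones with few detected genes, lay within their range. It averaged 1292 ± 504 CPM in Eln-/- and 942 ± 279 CPM in Eln+/+ cells (SD, n = 5 each), with a log2 fold change of 0.46 (SE 0.49). Actg2 (6:83512905-83536265, minus strand) had 152, 220.1, 221, 41.5 and 117 CPM in Eln-/- libraries, against 123, 179, 95.1, 186 and 171 CPM in Eln+/+ libraries. Eln-/- replicates 2 and 3 lay above all Eln+/+ libraries, and replicate 4, with few detected genes, lay below all of them. Eln-/- replicates 1 and 5 lay within the Eln+/+ range. The mean was 150.4 ± 75.7 CPM for Eln-/- cells and 150.8 ± 39.8 CPM for Eln+/+ cells. Actg2 was the only gene of the 10 with a fold change below 0, by 0.0030 on the log2 scale (SE 0.48). The coding sequences of the 2 actins are 84.2% identical, and their longest shared run is 29 bases. How the authors' counting divided reads between actins is not given in the sources used here, so actin counts carry that uncertainty.

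Of the genes for proteins that bind the thin filament, Tagln and Cnn1 were abundant in most libraries, while Smtn and Lmod1 varied far more. Tagln (9:45929619-45936058, minus strand), an actin cross-linker, had 461, 634, 754, 455 and 1452 CPM in Eln-/- libraries, against 643, 344, 129, 397 and 624 CPM in Eln+/+ libraries. Eln-/- replicate 5 stood highest and Eln+/+ replicate 3 lowest, and the remaining 8 libraries overlapped. Tagln averaged 751 ± 411 CPM in Eln-/- and 427 ± 213 CPM in Eln+/+ cells, with a log2 fold change of 0.81 (SE 0.55). Exons of Gm48529, on the opposite strand, cover 62.4% of the exon bases of Tagln. Gm48529 had 20.6 to 74.3 CPM in Eln-/- libraries and 6.29 to 42.6 CPM in Eln+/+ libraries, and without a known strand setting its reads cannot be told apart from those of Tagln. Cnn1 (9:22099216-22109630, plus strand), which inhibits the myosin ATPase, had 352, 189, 159.6, 16.6 and 140.3 CPM in Eln-/- libraries, against 17.6, 171, 67.8, 107 and 123 CPM in Eln+/+ libraries. Its low values came from Eln-/- replicate 4 and Eln+/+ replicate 1, both with few detected genes, and its log2 fold change was 0.82 (SE 0.73).

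Smtn and Lmod1 were decided by single libraries. Smtn (11:3517523-3540612, minus strand), which encodes smoothelin of contractile cells, had 187, 30.2, 11.8, 1.38 and 0.0377 CPM in Eln-/- libraries, against 0, 63.8, 4.38, 32.7 and 5.64 CPM in Eln+/+ libraries. Its 3 lowest libraries were the 3 with few detected genes. The 0 in Eln+/+ replicate 1 allows up to 0.198 CPM, the level of 3 counts there on the scale of these values. Exons of Gm11946 on the other strand cover 16.3% of its exon bases. Lmod1 (1:135324807-135368065, plus strand), a leiomodin that starts actin filaments, had 97.8, 7.61, 11.8, 0.0726 and 6.03 CPM in Eln-/- libraries, against 7.01, 19.4, 3.65, 15.7 and 4.92 CPM in Eln+/+ libraries. Apart from Eln-/- replicates 1 and 4, all 8 values lay between 3.65 and 19.4 CPM. The log2 fold changes were 1.11 (SE 1.69) for Smtn and 1.28 (SE 1.2) for Lmod1, and without Eln-/- replicate 1 they were -0.98 and -0.67.

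Of the myosin genes, the heavy chain varied most. Myh11 (16:14194535-14291372, minus strand), the smooth muscle myosin heavy chain, had 8700, 297, 149, 28 and 1 counts in Eln-/- replicates 1 to 5, against 93, 3007, 447, 93 and 67 counts in Eln+/+ replicates 1 to 5. In CPM these are 119, 4.53, 3.17, 2.03 and 0.0377 in Eln-/- libraries, against 6.15, 34.5, 9.07, 1.47 and 1.49 CPM in Eln+/+ libraries. In each genotype a single library held most of the signal, Eln-/- replicate 1 and Eln+/+ replicate 2, which were also the libraries with the highest Fos. The log2 fold change of Myh11 was 1.29 (SE 1.53) with all libraries, -2.11 without Eln-/- replicate 1 and -0.88 without both libraries with the highest Fos. Mylk (16:34745210-35002420, plus strand), the myosin light chain kinase, had 119, 41.4, 42.5, 34.6 and 6.97 CPM in Eln-/- libraries, against 19.0, 75.9, 64.2, 31.7 and 16.5 CPM in Eln+/+ libraries. Its values overlapped apart from the highest and the lowest, and the log2 fold change was 0.24 (SE 0.70). Myl9 (2:156775420-156781658, plus strand) had 969.7, 558, 383, 82.9 and 187 CPM in Eln-/- libraries, against 173, 572, 275, 362 and 349 CPM in Eln+/+ libraries. Its 3 lowest values were those of the 3 libraries with few detected genes, and its log2 fold change was 0.33 (SE 0.63).

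Csrp1 came closest to a difference between genotypes. Csrp1 (1:135720061-135752232, plus strand) had 183, 186, 299, 72.2 and 313 CPM in Eln-/- libraries, against 56.3, 119.9, 81.2, 80.0 and 129 CPM in Eln+/+ libraries. Of the Eln-/- libraries, 4 lay above all Eln+/+ libraries, and replicate 4, with few detected genes, lay below 4 of them. Csrp1 averaged 211 ± 98.5 CPM in Eln-/- and 93.2 ± 30.2 CPM in Eln+/+ cells, with a log2 fold change of 1.18 (SE 0.46). The unadjusted p of edgeR's quasi-likelihood test was 0.0270, and the p adjusted over all genes was 1.00.

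**Figure D2:**
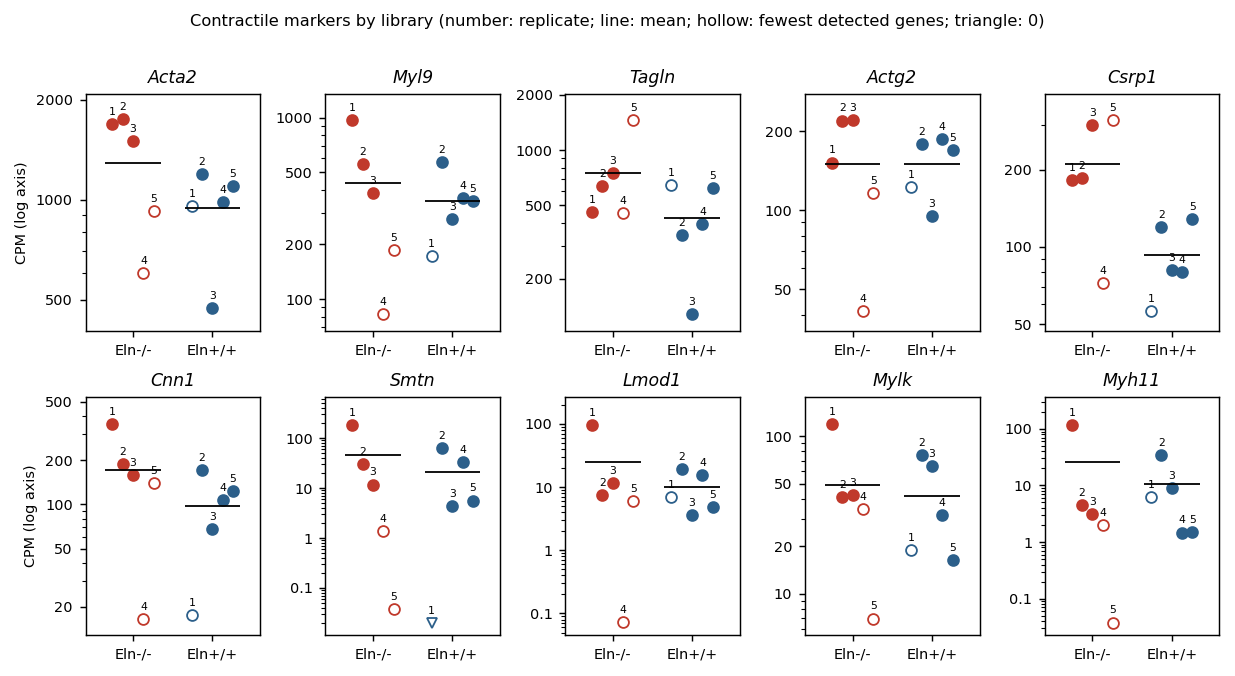
CPM of each contractile gene in every library (log axes, 1 panel a gene), with Eln-/- libraries on the left and Eln+/+ libraries on the right, numbered by replicate, and a line at the mean; hollow points mark the 3 libraries with few detected genes and the triangle is 0. The highest library is an Eln-/- library in all 10 panels, and no gene separates the genotypes.

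Across the contractile genes the means were mostly higher in Eln-/- cells, but none of them passed the test and none separated the genotypes. With edgeR's quasi-likelihood test, 0 of the 10 had an adjusted p under 0.05, where 0% of all genes (0 of 15718) did. At an unadjusted p under 0.05 there was 1, Csrp1, where 0.515% of all genes (81) passed. DESeq2 called 0 of the 10, where 0.0382% of genes (6) were called. It gave no adjusted p for 398 genes, Myh11 among them. limma-voom also called 0 of the 10, where 0.0127% of genes (2) were called without and 0.0445% (7) with sample quality weights. The fold change was above 0 in 9 of the 10, where 51.5% of genes were above 0, and their median log2 fold change was 0.82 beside 0.02 over all genes tested. The genotypes overlapped in 10 of 10, where 0.305% of genes (48) did not overlap.

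The shared direction depended on Eln-/- replicate 1, though not on that library alone. Without it, 4 of 10 genes had a fold change above 0, where 43.8% of all genes did. The median of the 10 was then -0.10, beside -0.13 over all genes, and Myh11, Smtn, Lmod1, Mylk and Myl9 turned below 0. With a replicate block, which kept that library, 5 of 10 genes were above 0, where 45.8% of all genes were. Without the 3 libraries with few detected genes, all 10 were above 0 with a median of 0.92. Of all genes tested there, 52.8% were above 0, with a median of 0.036. In that set 3 of the 10 had an unadjusted p under 0.05 in edgeR with an adjusted p of 1.00. The share of all genes under that unadjusted p was not counted there, so the 3 have no background beside them. Acta2, Tagln, Cnn1 and Csrp1 stayed above 0 under all 18 alternatives, with no adjusted p under 0.05. The highest of the 10 libraries was an Eln-/- library for 10 of 10 genes, where this held for 58.0% of all genes. Without Eln-/- replicate 1 it was so for 5 of 10 genes, where it held for 41.0% of all genes. The lowest library was an Eln-/- one for 6 of 10 genes and an Eln+/+ one for 4, where it was an Eln-/- one for 51.7% of all genes. Over the 7 libraries with the most detected genes, the lowest was an Eln-/- one for 0 of 10 genes, where this held for 44.9% of all genes. The highest of these 7 was an Eln-/- one for 10 of 10 genes, where this held for 47.6% of all genes. The SD of log2 CPM was larger in Eln-/- than in Eln+/+ libraries for 9 of 10 genes, where this held for 63.1% of all genes. Without the 3 libraries with few detected genes it was larger for 6 of 10, near the 51.2% of all genes.

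The contractile genes also differed in how steady they were. By the coefficient of variation of CPM over the 10 libraries, Acta2 and Actg2 were the steadiest, at 38.1% and 37.8%. Tagln, Csrp1, Myl9, Cnn1 and Mylk lay between 59.9% and 74.0%. Myh11, Smtn and Lmod1 reached 203%, 171% and 166%. By the SD of log2 CPM within genotypes, Acta2 at 0.60, Csrp1 at 0.69 and Actg2 at 0.76 were the steadiest. Myh11, Smtn and Lmod1 varied most by that measure too. The 3 unsteady genes are among those of lowest level and, with Mylk, have the 4 longest transcripts of the 10, between 3386 bases for Smtn and 7824 bases for Mylk, against 1128 to 2381 bases in the other 6. The parts of level, transcript length and cell state in this spread were not tested.

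**Figure D3:**
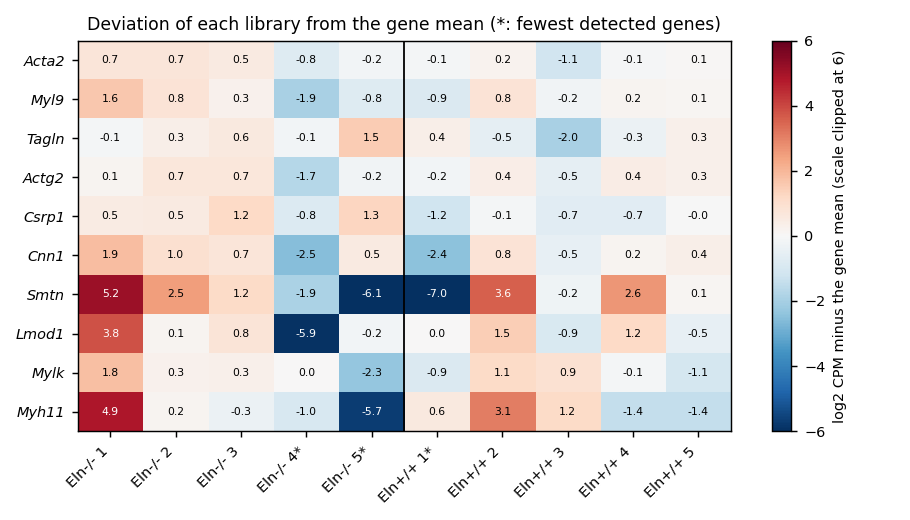
Deviation of log2 CPM from the mean of each gene over the 10 libraries, with genes down the page in order of abundance, Eln-/- libraries left of the line and Eln+/+ libraries right of it, and an asterisk on the 3 libraries with few detected genes. Eln-/- replicate 1 and Eln+/+ replicate 2 stand 4.87 and 3.08 above the mean for Myh11 and 5.15 and 3.60 above it for Smtn, while Acta2 deviates by 0.70 and 0.20.

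Most pairs of the contractile genes had a positive correlation over the libraries, and some were far closer than others. Over the 45 pairs and 10 libraries, the median Pearson r of log2 CPM was 0.47 and the median Spearman rho 0.49. The r was above 0 for 39 of 45 pairs, where 54.2% of all pairs of tested genes were above 0 with a median r of 0.08. In the 7 libraries with the most detected genes the median r of the 45 pairs was 0.61, where that of all pairs of genes was -0.01. The pairs share their libraries and their scaling, so they are not independent of each other. By permutation test with Benjamini-Hochberg adjustment over the 45 pairs, 8 passed by r and 8 by rho over 10 libraries, and 4 by r and 0 by rho over 7. Leaving out the 2 libraries farthest from the median of the first gene of a pair gave a median r of 0.37.

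The pairs that passed by r over both 10 and 7 libraries were Myh11 with Mylk, Cnn1 with Myl9 and Smtn with Myl9. Myh11 and Mylk had r = 0.91 and rho = 0.84 over 10 libraries (permutation p = 0.00059 and 0.00385, adjusted p = 0.0133 and 0.0289). Their r was 0.92 over 7 libraries (exact permutation p = 0.00317, adjusted p = 0.0446) and 0.68 without the 2 farthest libraries. Cnn1 and Myl9 had r = 0.88 and rho = 0.90 over 10 libraries (permutation p = 0.00043 and 0.00085, adjusted p = 0.0133 and 0.0191). Their r was 0.95 over 7 libraries (exact permutation p = 0.00198, adjusted p = 0.0446) and 0.77 without the 2 farthest. With the genotype means removed, r was 0.92 for Myh11 with Mylk and 0.90 for Cnn1 with Myl9, close to the values across genotypes. Smtn and Myl9 had r = 0.79 and rho = 0.93 over 10 libraries (permutation p = 0.00605 and 0.00036, adjusted p = 0.0452 and 0.0162), 0.92 over 7 and 0.91 without the 2 farthest. The other pairs that passed by r over 10 libraries were Acta2 with Actg2 at 0.77, Cnn1 with Lmod1 at 0.76, Smtn with Mylk at 0.79, Lmod1 with Myl9 at 0.87 and Myl9 with Actg2 at 0.79. The last of these had r = 0.28 over the 7 libraries and 0.76 without the 2 libraries farthest on Myl9, so it varied with the libraries kept. Smtn and Lmod1 passed over 7 libraries, at r = 0.92, and not by r over 10, at 0.47.

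Over 10 libraries, Tagln had the lowest median correlation with the others. Its r was -0.67 with Mylk, -0.57 with Myh11 and -0.40 with Smtn over 10 libraries, none of which passed the adjusted threshold (permutation p = 0.0368, 0.0857 and 0.260, adjusted p = 0.103, 0.175 and 0.390). Over the 7 libraries with most detected genes Tagln had r = 0.90 with Actg2 and 0.87 with Acta2 (exact permutation p = 0.0187 and 0.0250, adjusted p = 0.120 and 0.125), against 0.21 and 0.50 over 10. Its median r with the other 9 genes was 0.05 over 10 libraries, where those of Myl9 and Cnn1 were 0.73 and 0.68. Over 7 libraries it was 0.34, and that of Actg2 was lowest at 0.30. The count of pairs that passed was not stable. It was 3 of 45 with DESeq2 size factors, with the median r still at 0.47, and 0 without Eln-/- replicate 1, without Eln+/+ replicate 2 or without both.

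**Figure D4:**
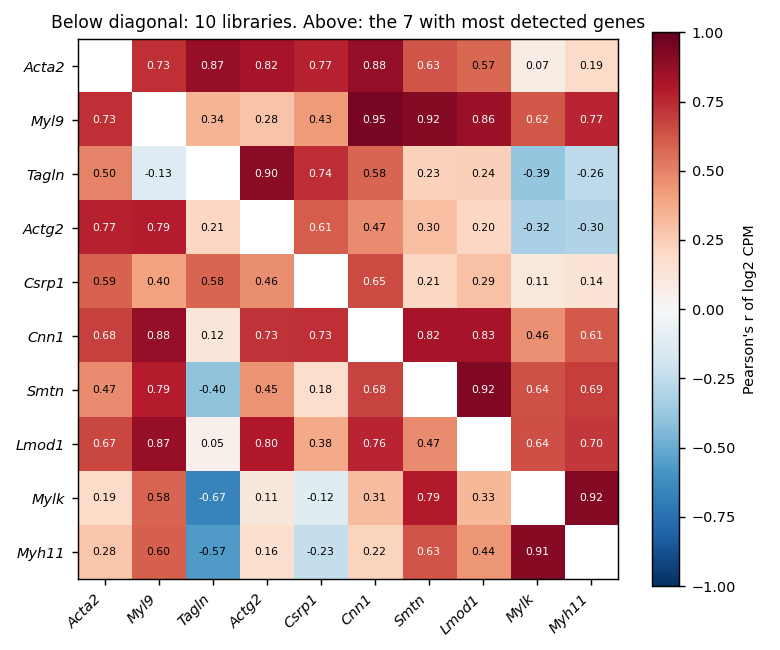
Pearson's r of log2 CPM for every pair of contractile genes, below the diagonal over 10 libraries and above it over the 7 libraries with the most detected genes, with genes in order of abundance. Myh11 with Mylk stands at 0.91 and 0.92 and Cnn1 with Myl9 at 0.88 and 0.95, while Tagln with Mylk is at -0.67 and -0.39.

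Contractile genes have relatives of the same gene families, and the ratio to a relative within a library does not depend on library scaling. In the ratio of Actg2 to Acta2 both genes are contractile markers. Of 7 ratios, 1 separated the genotypes. Calponin 1 relative to calponins 2 and 3 was higher in every Eln-/- library than in any Eln+/+ library, with log2 ratios of -1.75, -2.29, -2.25, -1.86 and -1.14 in Eln-/- replicates 1 to 5, against -3.04, -2.59, -3.82, -3.20 and -2.72 in Eln+/+ replicates 1 to 5. The genotypes did not overlap, and the means of -1.86 ± 0.47 in Eln-/- and -3.08 ± 0.48 in Eln+/+ cells differed by 1.22. A two-sided exact permutation test gave p = 0.00794, the smallest it can give with 5 libraries a genotype, and adjustment over the 7 ratios gave 0.0556, the lowest that 1 ratio alone at that p could reach. The difference lay between 0.99 and 1.34 under all alternatives tried, with adjusted p between 0.0278, without Eln+/+ replicate 1, and 0.200, without the 3 libraries with few detected genes or the 2 with the highest Fos. Cnn2 averaged 200.3 ± 144 CPM in Eln-/- and 177 ± 98.0 CPM in Eln+/+ cells, and Cnn3 averaged 448 ± 314 CPM in Eln-/- and 609 ± 288 CPM in Eln+/+ cells. Neither of them, nor Cnn1, passed edgeR's test alone.

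The actin ratios also leaned toward Acta2. Actg2 relative to Acta2 had log2 ratios of -3.47, -2.98, -2.76, -3.86 and -2.99 in Eln-/- libraries, against -2.96, -2.74, -2.31, -2.40 and -2.69 in Eln+/+ libraries. The lowest values were Eln-/- ones and the genotypes overlapped in part, with means of -3.21 ± 0.44 in Eln-/- and -2.62 ± 0.26 in Eln+/+ cells, a difference of -0.59 (exact permutation p = 0.0159, adjusted p = 0.0556). Acta2 relative to Actb plus Actg1, the cytoplasmic actins, averaged -2.12 ± 0.19 in Eln-/- and -2.71 ± 0.68 in Eln+/+ cells, a difference of 0.58 (exact permutation p = 0.0556, adjusted p = 0.0972). Eln+/+ replicate 3 was lowest at -3.83, and without that library the difference was 0.30. Per length, Acta2 made up 20.8% ± 2.42 of the summed level of 6 actins in Eln-/- and 15.4% ± 4.98 in Eln+/+ cells. Actb made up 64.5% ± 3.07 in Eln-/- and 68.8% ± 7.80 in Eln+/+ cells, so the cytoplasmic form was the main actin message of both genotypes, and Actg2 made up 3.27% ± 0.87 in Eln-/- and 3.43% ± 0.72 in Eln+/+ cells.

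Of the other 4 ratios, none had an adjusted p under 0.05. Tagln relative to Tagln2 averaged 2.14 ± 1.19 in Eln-/- and 1.03 ± 0.50 in Eln+/+ cells, a difference of 1.11 (exact permutation p = 0.0556, adjusted p = 0.0972), with Eln-/- replicate 5 far above the rest at 4.23. Myh11 relative to Myh9 plus Myh10, the non-muscle myosins, averaged -4.16 ± 2.30 in Eln-/- and -3.36 ± 1.09 in Eln+/+ cells, a difference of -0.80 (exact permutation p = 0.556, adjusted p = 0.778). That difference was 0.64 without the 3 libraries with few detected genes. Myh11 made up 28.2% of the summed level of 4 myosin heavy chains in Eln-/- replicate 1 and 25.6% in Eln+/+ replicate 2, and between 0.443% and 18.5% in the other libraries. The ratio of Csrp1 to Csrp2 differed by 0.16 and that of Myl9 to Myl12a plus Myl12b by 0.14 (exact permutation p = 0.754 and 0.849, adjusted p = 0.849 for both). In both of these, the lowest values were from the libraries with few detected genes.

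**Figure D5:**
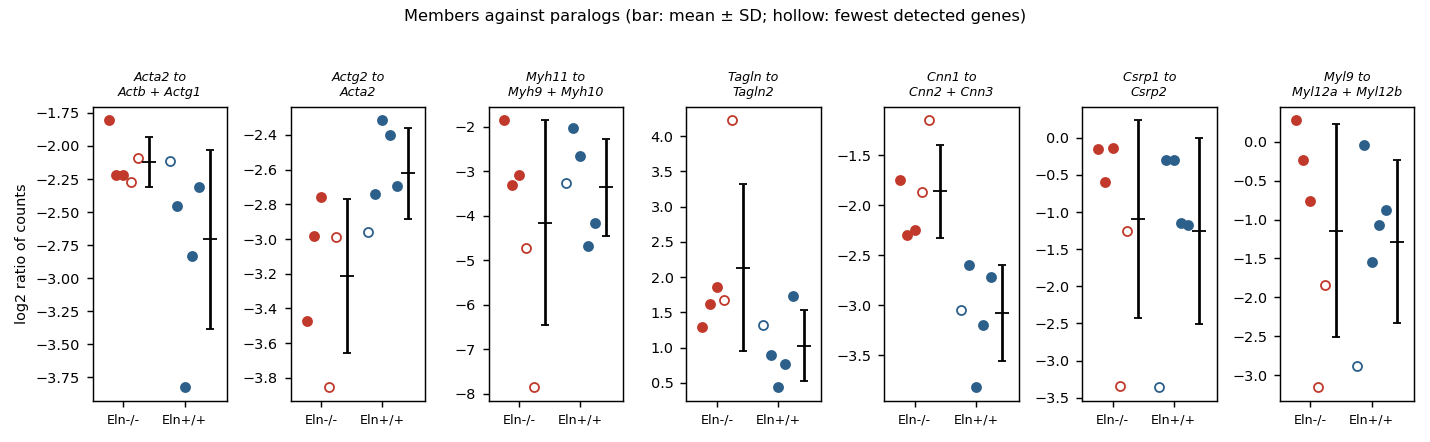
Log2 ratio of the counts of a contractile gene to those of its relatives in each library, with Eln-/- libraries left of Eln+/+ libraries in each panel, mean ± SD beside the points, and hollow points for the 3 libraries with few detected genes. The 5 Eln-/- libraries lie above the 5 Eln+/+ libraries for Cnn1 against Cnn2 plus Cnn3, between -2.29 and -1.14 against -3.82 and -2.59, and the genotypes overlap in the other panels.

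Other genes of the contractile apparatus and its control gave no call. Of 34 further contraction genes, all tested, 24 had a fold change above 0 and 10 below, where 51.5% of all genes were above 0. Their median was 0.28 on the log2 scale beside 0.02 over all genes. In edgeR 0 had an adjusted p under 0.05, where 0 of all 15718 genes did. At an unadjusted p under 0.05 there were also 0, where 0.515% of all genes passed. The most abundant per length were Myl6, the essential myosin light chain, Fhl1, a LIM protein, Rhoa, the small GTPase that sensitises smooth muscle to calcium, and Ppp1r14a, an inhibitor of myosin phosphatase. Myl6 averaged 2162 ± 1912 CPM in Eln-/- and 1839 ± 1996 CPM in Eln+/+ cells. Its 3 highest libraries, at 5272 and 2677 CPM in Eln-/- replicates 4 and 5 and 5378 CPM in Eln+/+ replicate 1, were those with few detected genes, the reverse of Myl9. Ppp1r14a was also highest in these 3 libraries, at 154 and 101 CPM in Eln-/- and 176 CPM in Eln+/+ libraries, against 20.3 to 56.6 CPM in the other 7. Fhl1 had a log2 fold change of -0.16 (SE 0.61) and Rhoa of 0.04 (SE 0.43). In edgeR's quasi-likelihood test, fitted across all genes, the smallest p values of the list were those of Actn1, an actinin, and Tln1, or talin, with log2 fold changes of 1.30 (SE 0.96) and 0.96 (SE 0.76) and unadjusted p of 0.202 and 0.236.

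The regulators of the contractile program were mostly low, and myocardin was highest where Myh11 was. Of 9 regulators, 5 had a fold change above 0 and 4 below, with a median of 0.22, where 51.5% of all genes were above 0. None passed edgeR's test at an unadjusted p under 0.05, where 0.515% of all genes did. Myocd, or myocardin, had 93.1, 18.9, 11, 10.8 and 0 CPM in Eln-/- libraries, against 2.84, 47.1, 0, 5.69 and 3.36 CPM in Eln+/+ libraries. Its highest library in each genotype was the one with the highest Myh11, Eln-/- replicate 1 and Eln+/+ replicate 2, and its log2 fold change was 1.18 (SE 1.69). Klf4, a repressor of contractile genes, was also highest in Eln-/- replicate 1, with 99.0 CPM. It had 2.79 to 16.0 CPM in the remaining Eln-/- libraries and 5.69 to 29.7 CPM in Eln+/+ ones. Mrtfb, a myocardin-related cofactor, reached 129 CPM in Eln-/- replicate 4 and 96.7 CPM in Eln+/+ replicate 1, against at most 18.9 CPM in the other 8. Gata6, a transcription factor of vascular smooth muscle, averaged 46.2 ± 16.0 CPM in Eln-/- and 28.7 ± 20.1 CPM in Eln+/+ cells, and Foxo4 averaged 0.57 ± 0.84 CPM in Eln-/- and 1.53 ± 1.36 CPM in Eln+/+ cells, with unadjusted p of 0.238 and 0.332 in edgeR. Of 17 tested relatives of the contractile genes, 5 had a fold change above 0 and 12 below, with a median of -0.16, beside the same share of all genes. None of the relatives had an unadjusted p under 0.05 in edgeR.

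The genes whose pattern over the 10 libraries was most like the mean pattern of the contractile genes were sought among 3441 genes with a mean log2 CPM of at least 5. They were 2310022B05Rik with Pearson r = 0.97, Htra1, a secreted protease, with 0.96, Ptms, or parathymosin, with 0.95, Fbln5, the elastic-fibre protein fibulin 5, with 0.93, and Socs3, a suppressor of cytokine signalling, with 0.93. Over the 7 libraries with the most detected genes their r lay between 0.89 and 0.97. Since they were picked as the highest of many, these values are a description. Fbln5 averaged 1977 ± 1953 CPM in Eln-/- and 1469 ± 861 CPM in Eln+/+ cells, and Htra1 averaged 153.5 ± 152 CPM in Eln-/- and 94.5 ± 58.6 CPM in Eln+/+ cells.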

How the data were processed

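The submitters' processing notes name STAR, DESeq2 and the build mm10, without versions. The sources used here do not give the counting program, annotation or strand setting. The authors deposited 1 table of estimated counts per gene and library, not scaled. Between 23.5% and 48.8% of values in a library were not whole at a tolerance of 1e-06, and all were rounded for the tests. Spans of 27035 of 28165 genes (96.0%) were those of GENCODE M21, which gave exon lengths.

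Genes were kept by filterByExpr, scaled by TMM and tested with edgeR's quasi-likelihood test on genotype (two-sided, Benjamini-Hochberg over 15718 genes, threshold 0.05). The SE is the log2 fold change divided by the square root of F. CPM used TMM library sizes and log2 CPM a prior count of 2. Ratios were of counts plus 0.5, by exact permutation. Correlations over 10 libraries used 100000 resamples and those over 7 all orders. The edgeR procedure was tried on simulated counts with fold changes far larger than those of the 10 genes. That trial does not show its power for changes of their size. Alternatives were DESeq2, limma-voom, other scaling and filters, a replicate block and libraries left out. Leaving out the 2 libraries with the highest Fos was chosen after seeing the data. Tools were edgeR 4.0.16, limma 3.58.1 and DESeq2 1.42.0 in R 4.3.3, and SciPy 1.17.1.

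The genes, lists and tests were chosen with earlier results of these data known. Named besides the 10 genes were Eln, relatives in ratios, the 4 most abundant per length and 2 of smallest p of each list, the 2 most abundant of each marker list (1 list is not reported here) and the 5 genes of most similar pattern; Cdh5 and Pecam1 were named as the defining endothelial markers. Floors of 3 counts cover counting error only.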

Additional observations from a re-analysis of the deposited data

Results flagged for a closer look

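Of 34 sets of 5 libraries examined, 6 held a library set far apart from the other 4 by Dixon's criterion. Its chance rate of about 1 in 20 sets holds for normally distributed values. Gene levels entered as CPM without logs and were skewed, so the 6 cannot be set against that rate. Myh11 was high in Eln-/- replicate 1 at 119 CPM, with 4.53 CPM the next highest of that genotype, and in Eln+/+ replicate 2 at 34.5 CPM, with 9.07 CPM the next highest. Smtn at 187 CPM and Lmod1 at 97.8 CPM stood apart in Eln-/- replicate 1 as well. These values came from the 2 libraries with the highest Fos, and a part of stress or digestion in them was not tested. The log2 ratio of Tagln to Tagln2 was 4.23 in Eln-/- replicate 5, and that of Csrp1 to Csrp2 was -3.36 in Eln+/+ replicate 1. Both of these libraries are among the 3 with few detected genes.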

How the results depend on the processing

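No contractile gene and no other contraction gene or regulator passed the threshold under any alternative run. The count of all genes that passed was 0 in edgeR, 6 in DESeq2, 2 in limma-voom, 7 with sample quality weights, 0 to 1 with 1 library left out and 1 without the 2 libraries with the highest Fos. Signs of log2 fold changes turned as follows, and the cause was not tested. In limma-voom, Myh11 was -0.66 and Lmod1 -0.028. With quality weights, Lmod1 was -0.20 and Actg2 0.25. With 1 library left out, Myh11 ranged between -2.11 and 2.52, Smtn between -0.98 and 2.11, Lmod1 between -0.67 and 1.66, Mylk between -0.41 and 0.58, Myl9 between -0.20 and 0.60 and Actg2 between -0.19 and 0.24. The low end of the first 5 ranges was reached without Eln-/- replicate 1, and the high end for Myh11, Smtn, Lmod1 and Mylk without Eln+/+ replicate 2. Without the 3 libraries with few detected genes, Actg2 was 0.34. Without the 2 libraries with the highest Fos, Myh11 was -0.88, Lmod1 -0.29, Mylk -0.064 and Actg2 0.063. Over all genes tested, replicate numbers showed no steady pairing of the libraries. The deviations of same-numbered libraries correlated at -0.56, 0.51, 0.12, -0.38 and 0.092, and 1 of 5 numbers correlated best with its own. A pairing hidden by the differences in detected genes and scaling between libraries was not tested. With the replicate block, 0 genes passed, Myh11 was -1.20, Smtn -1.19, Mylk -0.091 and Myl9 -0.057, and the median of the 10 genes was 0.0085. With 1 library left out, the difference in log2 ratio ranged between 0.30 and 0.73 for Acta2, -0.70 and -0.43 for Actg2, -1.38 and 0.12 for Myh11, 0.58 and 1.32 for Tagln, 1.03 and 1.34 for Cnn1, -0.37 and 0.72 for Csrp1 and -0.26 and 0.64 for Myl9. The Myh11 ratio was 0.64 without the 3 libraries with few detected genes. Without Eln+/+ replicate 1, the Acta2 ratio (0.73, adjusted p = 0.0278), the Actg2 ratio (-0.68, adjusted p = 0.0370) and the Cnn1 ratio (1.22, adjusted p = 0.0278) passed the exact permutation test. Under the other alternatives the adjusted p of the Cnn1 ratio was between 0.0556 and 0.200, and 0.146 with the replicate block. With 7 or 8 libraries that test could not pass after adjustment for any ratio alone. The count of pairs that passed was 3 with DESeq2 size factors, 4 without the 3 libraries, 0 without the 2 with the highest Fos, and 0 to 10 with 1 library left out. The order of abundance kept 6 of 10 ranks with the longest transcript and 2 with plain CPM. Counts of 0 or 1 limit the precision of Myh11, Smtn and Lmod1 in some libraries with few detected genes, and the part of depth in these was not tested.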
